A study of Arabidopsis thaliana with 8 samples.

Results

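The JASMONATE ZIM-DOMAIN (JAZ) genes encode the repressors of the jasmonate response. Of the family, 10 loci (JAZ1, JAZ2, JAZ3, JAZ5, JAZ6, JAZ7, JAZ8, JAZ9, JAZ10 and JAZ12) were followed in Arabidopsis thaliana seedlings with and without TT8. The members are a list of named loci with no threshold on a measured value, and the list was drawn up with earlier results of these data known. Of the family it leaves out JAZ4, JAZ11 and JAZ13, which are given beside it. Probes were tied to a locus through the RefSeq accession that the scanner files give for each probe. All 10 were measured and all 10 passed the filter on dim probes, among 25433 genes with a named probe and 19226 genes tested.

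The wild-type group was the accession Ws and the mutant group was tt8-3, a line in the same Ws background that has lost the function of TT8. TT8 is a transcription factor of the basic helix-loop-helix kind, which works in a complex with MYB and WD40 proteins on the late genes of flavonoid synthesis. Both groups were whole seedlings aged 6 days, grown on full-strength MS medium with sucrose in long days, and no treatment is given for either. The mutant is represented by a single allele, and no complemented line was analysed here. Each line had 4 arrays of the 1-colour Cy3 kind, which lay as pairs on 2 slides, with wild type in positions 1 and 2 and tt8-3 in positions 3 and 4. Position on the slide and genotype therefore cannot be told apart. RNA came from whole seedlings, so a lower value from fewer cells of a type and one from less RNA per cell cannot be told apart either.

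A JAZ protein binds MYC transcription factors through its Jas motif and recruits TOPLESS co-repressors through its ZIM domain, usually by way of the adaptor NINJA. The hormone jasmonoyl-isoleucine brings JAZ proteins to the F-box receptor COI1, which leads to their ubiquitination and destruction and so frees the MYC factors. Most JAZ genes are themselves targets of the MYC factors, so that hormone action also renews the repressors. JAZ proteins also bind the helix-loop-helix factors TT8, GL3 and EGL3 and the MYB factors MYB75 and GL1, which places the family at the meeting point of jasmonate with anthocyanin and trichome control. The comparison asks how the transcripts of these repressors differ between seedlings with and without TT8, one of the factors they bind.

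Levels below are processed spot signals on a log2 scale, with the 75th percentile of an array taken as its zero, and changes are tt8-3 minus wild type on that log2 scale. Both arrays that a line had on a slide were averaged, which left 2 slide averages per line, and a mean ± SD is over these 2 values. The text says rose or fell for genes with an adjusted p below 0.05 in limma on the slide averages, adjusted over all 19226 genes. The design text can also be read with the first arrays of both slides as one biological sample and the second arrays as the other. Where that averaging by order on the slide, or slide as a block, changed the call of a JAZ member, its adjusted p is given beside it. For other genes it stands beside the gene or as a count for the list. Nothing in the labels says which cultures the arrays came from, so these p-values measure the spread between the averages, which may be technical.

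Signal was adequate on every array. The percentile used for scaling lay at a processed signal of 547 to 1113, and 69.0% to 71.7% of probes on wild-type arrays and 70.9% to 77.2% on tt8-3 arrays were well above background. TT8 (AT4G09820) checked the labels, with a level of 4.28 ± 0.065 in wild type and -6.41 ± 0.86 in tt8-3. It was not well above background on any tt8-3 array and was lower there (limma adjusted p = 0.0018). With each tt8-3 array floored at its lowest signal flagged well above background, the difference was 1521-fold. Some probes above that floor lacked the flag, so the fold is not a strict bound. Shoot and root markers were present, since all 5 of each list were well above background on all 8 arrays. The summed level of the shoot markers was 9.46 to 10.6 in wild type and 9.38 to 10.1 in tt8-3, and that of the root markers was 4.31 to 5.21 and 5.06 to 5.42. Over all genes 26.7% passed by slide averages, 3.11% by averages by order and 64.6% with slide as a block. In wild type, arrays of the same slide differed by a median of 0.318 per gene and arrays of the same order by 0.150, and in tt8-3 by 0.133 and 0.173. The consensus correlation that limma estimated was -0.21 between arrays of a line on a slide and 0.56 between arrays of a line of the same order. By that measure arrays of the same order were more alike, so a slide average may join different samples.

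Most of the family stood higher without TT8. Of the 10 members 7 rose (JAZ1, JAZ5, JAZ6, JAZ7, JAZ8, JAZ10 and JAZ12), where 15.7% of all genes rose, and 1 fell (JAZ3), where 11.0% of all genes fell. JAZ2 and JAZ9 did not pass. The median change of the members was 0.97, against 0.0103 over all genes tested. By averages by order 3 members rose (JAZ5, JAZ8 and JAZ10) and 0 fell, beside 2.73% and 0.380% of all genes, and the other 5 calls were lost. At an unadjusted p below 0.05 in limma 8 members rose and 0 fell by averages by order. The slide block gave 9 rises and 1 fall, beside 33.8% and 30.8%. With normexp background correction on spot medians 0 members passed in limma (7 at an unadjusted p below 0.05), and with spots of flagged background left out 6 rose and 1 fell. The averaging does not alter the change itself, which for the median member was 1.02 within slide 1 and 0.97 within slide 2. For 8 members the lowest tt8-3 array lay above the highest wild-type array, as it did for 19.6% of all genes, and for JAZ3 and JAZ9 the arrays of the lines overlapped.

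**Figure D1:**
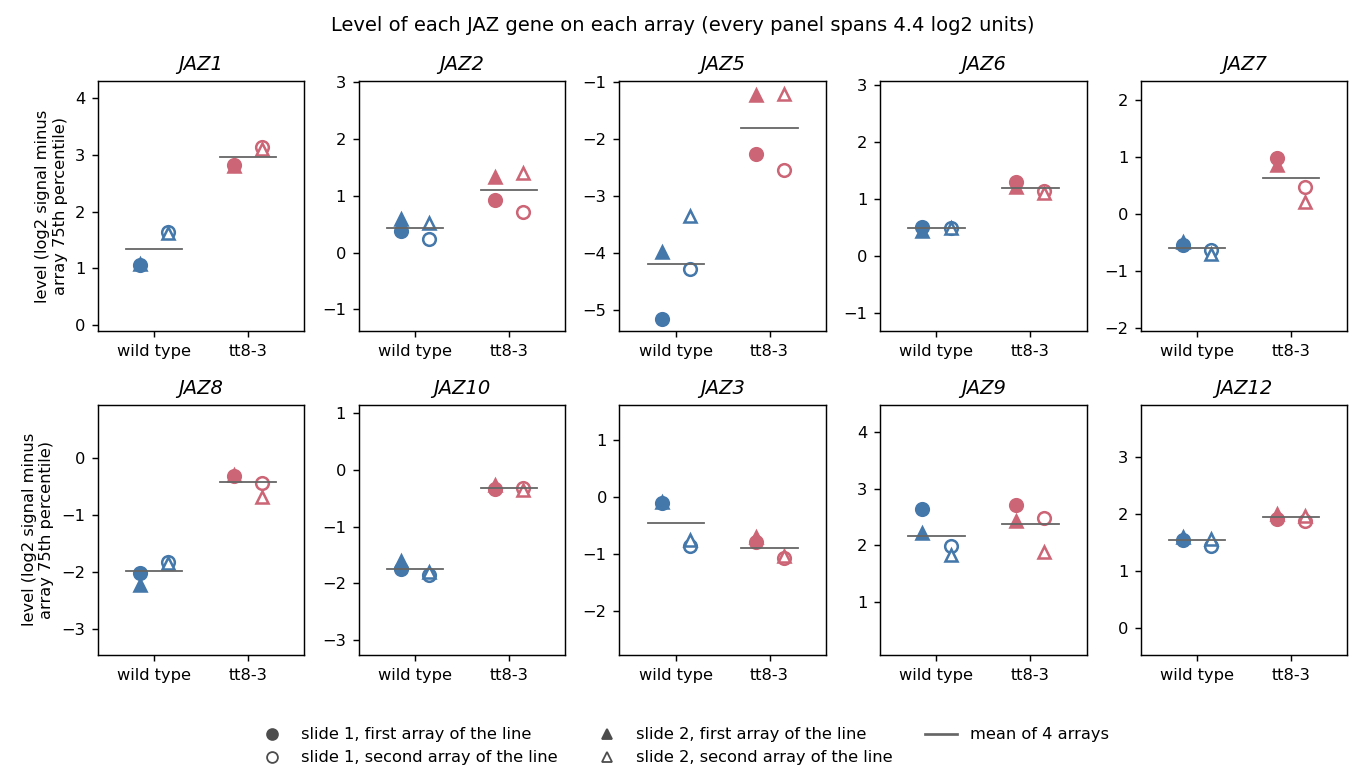
Level of each of the 10 JAZ genes on every array, in log2 units relative to the 75th percentile of that array, with wild type and tt8-3 side by side in a panel for each gene. Circles are slide 1 and triangles slide 2, filled symbols are the first and open symbols the second array of a line on the slide, and the grey line is the mean of the 4 arrays. The lines do not overlap in 8 panels and overlap for JAZ3 and JAZ9, and every panel spans the same number of log2 units around its own level.

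JAZ1 (AT1G19180) is a classic repressor of the family, with a complete Jas degron, and is induced quickly by jasmonate. Wild-type arrays read 1.06 and 1.63 on slide 1 and 1.07 and 1.62 on slide 2. The tt8-3 arrays read 2.81 and 3.13 on slide 1 and 2.80 and 3.10 on slide 2. All 4 tt8-3 arrays lay above all 4 wild-type arrays, and the slides were nearly alike, whereas the first array of a line was below the second by 0.56 in wild type and 0.31 in tt8-3. The means were 1.35 ± 0.0012 and 2.96 ± 0.015, a rise of 1.62 (SE 0.082, limma adjusted p = 0.0029), or 3.06-fold with a 95% interval of 2.62 to 3.58. With averages by order JAZ1 narrowly missed the threshold (adjusted p = 0.054), while its 1 probe passed by order in the fit over all probes (0.042). The SD of 0.0012 reflects how closely the slide averages met, not the difference between the arrays within them.

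JAZ2 (AT1G74950) is a close relative of JAZ1 that is known for control of stomata under attack by coronatine-producing bacteria. Its levels on wild-type arrays were 0.39 and 0.24 on slide 1 and 0.58 and 0.52 on slide 2. On tt8-3 arrays they were 0.93 and 0.72, then 1.33 and 1.40. The lines did not overlap, and both stood higher on slide 2, by 0.24 in wild type and 0.54 in tt8-3. The difference of 0.66 (SE 0.22, 95% interval 0.065 to 1.26) did not pass by slide averages (limma adjusted p = 0.096) or by averages by order (adjusted p = 0.100), whereas the slide block gave an adjusted p of 0.0091. Within slide 1 it was 0.51 and within slide 2 0.81. Without the tt8-3 average of slide 1 it was 0.93 and passed (adjusted p = 0.021), and without that of slide 2 it was 0.39 and did not.

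JAZ5 (AT1G17380) differed strongly between the lines and also varied strongly within them. Wild-type levels were -5.16 and -4.28 on slide 1 and -3.99 and -3.35 on slide 2, and tt8-3 levels were -2.26 and -2.55, then -1.22 and -1.20. Every array measured the probe well above background, although the wild-type levels were low. Even the lowest tt8-3 array exceeded the highest wild-type array, and slide 2 read higher than slide 1 by 1.05 in wild type and 1.19 in tt8-3. The means were -4.19 ± 0.74 and -1.81 ± 0.84. JAZ5 rose by 2.39 (SE 0.55, limma adjusted p = 0.046), or 5.23-fold with a 95% interval of 1.83 to 14.9. The change was 2.32 within slide 1 and 2.46 within slide 2, and the call also stood by averages by order (adjusted p = 0.032). The size depended on the background correction, since normexp on spot medians gave 1.51 without a call, and 1.35 with a call when spots of flagged background were left out. The call was lost too when dim probes were not filtered, and by slide averages in the fit over all probes (adjusted p = 0.053). Of the 12 fits without an array or a slide average, the call was lost without wild-type replicate 3 (change 2.23), tt8-3 replicate 1 (2.32) or the wild-type average of slide 1 (1.86). The change without the tt8-3 average of slide 2 was 1.79 and without that of slide 1 it was 2.98, and both passed.

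JAZ6 (AT1G72450), the nearest relative of JAZ5, behaved far more evenly from array to array. At the brighter of its 2 probes the wild-type levels were 0.51, 0.49, 0.44 and 0.48, in the order of slide 1 then slide 2. The tt8-3 levels were 1.31, 1.15, 1.21 and 1.101. The groups were clearly apart, with all wild-type arrays close together. JAZ6 rose by 0.71 (SE 0.086, limma adjusted p = 0.012), or 1.64-fold with an interval of 1.39 to 1.93, and missed the threshold by averages by order (adjusted p = 0.091). The call was also lost without the wild-type average of slide 1 (change 0.73) or of slide 2 (0.69). The dimmer probe gave 0.63, from 0.47 to 0.56 in wild type to 1.00 to 1.25 in tt8-3 (adjusted p = 0.023 over all probes).

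JAZ7 and JAZ8 belong to the branch of small JAZ proteins with an EAR motif, which can bind TOPLESS without NINJA. JAZ7 (AT2G34600) read -0.56, -0.63, -0.49 and -0.71 on the wild-type arrays, in the order of slide 1 then slide 2. On the tt8-3 arrays it read 0.98, 0.46, 0.85 and 0.21. All tt8-3 arrays were higher than all wild-type arrays, and within tt8-3 the first array of a slide exceeded the second by 0.58. JAZ7 rose by 1.23 (SE 0.11, limma adjusted p = 0.0070), or 2.34-fold with an interval of 1.92 to 2.85. It did not pass by averages by order (adjusted p = 0.081).

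JAZ8 (AT1G30135) lacks the canonical Jas degron and resists hormone-driven destruction. Its wild-type levels were -2.02 and -1.83 on slide 1 and -2.22 and -1.84 on slide 2, and its tt8-3 levels were -0.31 and -0.42, then -0.29 and -0.67. The lines lay far apart with no overlap. JAZ8 rose by 1.55 (SE 0.098, limma adjusted p = 0.0041), or 2.94-fold with an interval of 2.44 to 3.53, and also by averages by order (adjusted p = 0.033). The change was 1.56 within slide 1 and 1.55 within slide 2.

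JAZ10 (AT5G13220) is known for splice forms that differ in their stability and for its part in switching the response off again, and its transcript is a common reporter of jasmonate action. The 2 probes of JAZ10 were designed on different RefSeq transcripts. At the brighter, wild type read -1.74, -1.85, -1.60 and -1.79 and tt8-3 read -0.33, -0.32, -0.26 and -0.36, again in the order of slide 1 then slide 2. The tt8-3 arrays formed a narrow band well above wild type. There JAZ10 rose by 1.42 (SE 0.089, limma adjusted p = 0.0041), or 2.68-fold with an interval of 2.27 to 3.18, and also by averages by order (adjusted p = 0.025). At the dimmer probe the wild-type arrays lay between -3.37 and -2.83 and the tt8-3 arrays between -2.01 and -1.71, and the rise was 1.25 (SE 0.13, adjusted p = 0.011 over all probes, and 0.040 by averages by order). Both probes therefore gave a rise, and a difference between them was not tested.

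JAZ12 (AT5G20900), whose protein is kept stable by the ubiquitin ligase KEG, changed less. At the brighter of 2 probes wild type read 1.54, 1.44, 1.60 and 1.57 and tt8-3 read 1.92, 1.88, 2.01 and 1.97, with slide 1 first. The groups did not overlap. JAZ12 rose by 0.41 (SE 0.093, limma adjusted p = 0.044), or 1.33-fold with an interval of 1.11 to 1.58. The call was lost by averages by order (adjusted p = 0.20), and of the 12 fits without an array or a slide average it stood in 1, the fit without tt8-3 replicate 2. Changes over these fits ran from 0.36 to 0.45. Median scaling gave 0.31, and normexp 0.21 or, without spots of flagged background, 0.32, all without a call. The dimmer probe gave 0.45, from 0.84 to 0.95 in wild type to 1.19 to 1.45 in tt8-3. In the fit over all 30683 probes the dimmer probe passed (adjusted p = 0.048) and the brighter did not (0.054).

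JAZ3 and JAZ9 are related members whose arrays overlapped between the lines. JAZ3 (AT3G17860) is the locus of the jai3-1 allele, whose truncated protein withstands COI1 and makes plants insensitive to the hormone. Wild type read -0.11 and -0.87 on slide 1 and -0.08 and -0.75 on slide 2, and tt8-3 read -0.79 and -1.07, then -0.70 and -1.04. The first wild-type arrays were the highest, and the second wild-type arrays lay within the range of tt8-3. JAZ3 fell by 0.45 on the log2 scale by slide averages (SE 0.087, limma adjusted p = 0.031), or 1.36-fold. By averages by order the same change was far from the threshold (adjusted p = 0.41, interval -1.22 to 0.32), and of the 12 fits without an array or a slide average the call stood in 1, the fit without tt8-3 replicate 3. The change was -0.26 without wild-type replicate 1, -0.28 without wild-type replicate 3 and -0.64 without wild-type replicate 2.

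JAZ9 (AT1G70700), which is known to bind the DELLA protein RGA of gibberellin signalling, read 2.64 and 1.99 on wild-type slide 1 and 2.21 and 1.84 on slide 2. In tt8-3 it read 2.72 and 2.48, then 2.43 and 1.89. The lines overlapped over most of their range. The difference of 0.21 (SE 0.20, interval -0.34 to 0.75) did not pass (limma adjusted p = 0.48), though the slide block gave an adjusted p of 0.047. Without the tt8-3 average of slide 1 the difference was -0.012. A difference of the size seen for JAZ6 or JAZ2 lies inside this interval.

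**Figure D2:**
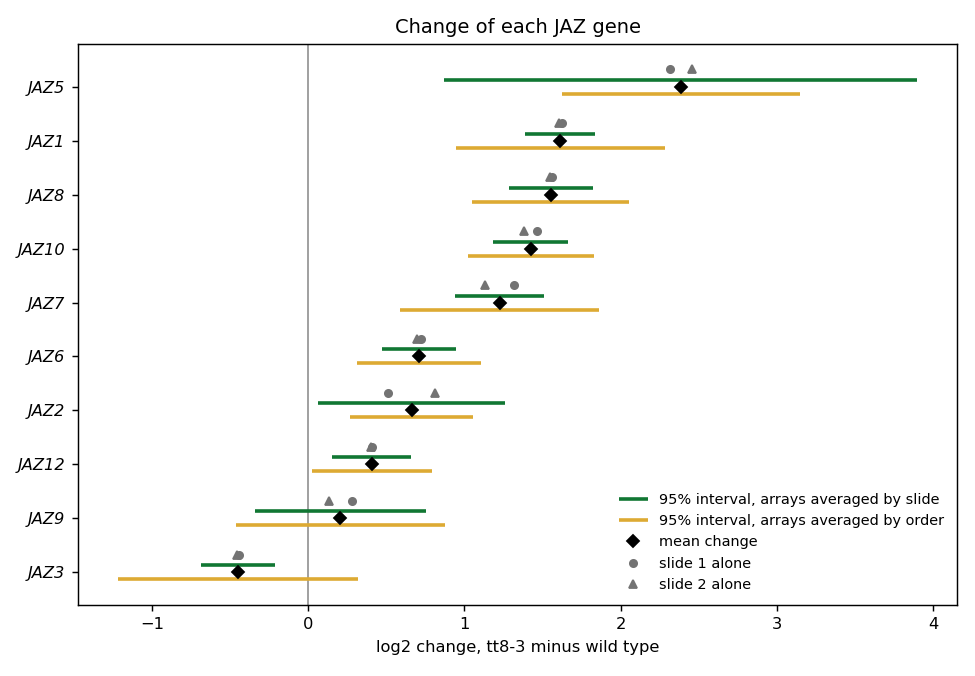
Change of each JAZ gene, tt8-3 minus wild type in log2 units, with its 95% interval by slide averages (green) and by averages by order (yellow), and the change within each slide as grey points. The centre is the same for both ways of averaging, from -0.45 for JAZ3 to 2.39 for JAZ5. The interval is wider by slide for JAZ2 and JAZ5 and wider by order for every other member.

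Across all 13 probes of the members, 8 rose and 1 fell when every probe was tested on its own, where 13.0% of all probes rose and 10.7% fell. The probe of JAZ5 did not pass there (adjusted p = 0.053). With averages by order 5 probes rose, where 3.89% of all probes did. For 11 of the 13 probes the lines did not overlap, with tt8-3 above wild type, as for 18.0% of all probes. The 3 genes with 2 probes gave changes of one direction at both. The spread of the members had different forms. JAZ1 and JAZ3, and JAZ7 in tt8-3, differed mainly between the arrays of a slide, and JAZ2 mainly between slides. JAZ5 differed between slides, and in wild type also between the arrays of a slide (by 0.76). JAZ9 differed in both ways, and JAZ6, JAZ10 and JAZ12 varied little in either.

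The other tested JAZ genes gave no call, in limma and with slide as a block, at an adjusted or an unadjusted p. JAZ4 (AT1G48500) read -4.72 ± 0.20 in wild type and -4.93 ± 0.070 in tt8-3 (limma adjusted p = 0.30). JAZ11 (AT3G43440) read -0.71 ± 0.012 and -0.63 ± 0.034 (limma adjusted p = 0.49), a difference of 0.085 that turned to -0.014 with median scaling. JAZ13 (AT3G22275) was not tested, since its probe stood well above background on 0 of the 4 arrays of wild type and 3 of the 4 of tt8-3. Among the TIFY proteins outside the family, PPD2, a repressor of leaf meristemoid division, rose by 0.58 (limma adjusted p = 0.020, by order 0.15). PPD1 had a difference of 0.38 and TIFY8 one of -0.40, and neither passed by slide averages (limma adjusted p = 0.11 and 0.083) or by order, while the slide block gave 0.0084 and 0.0095. The value for TIFY8 is that of the brightest of 3 probes, and the other probes gave -0.52 and -0.66 (adjusted p = 0.032 and 0.024 over all probes).

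The receptor side of the pathway showed no call by slide averages or by averages by order. The list held COI1, the jasmonate receptor, with ASK1, ASK2, CUL1 and RBX1 of its ubiquitin ligase, and 0 of 5 passed in limma in either averaging, at an adjusted or an unadjusted p below 0.05. Differences ran from -0.21 (ASK1) to 0.14 (ASK2), COI1 stood at -0.12 (SE 0.17) and RBX1 at -0.065, which turned to 0.025 with quantile normalization. The slide block gave 1 call among the 5, ASK1 (adjusted p = 0.024). Of all genes 26.7% passed by slide averages, 3.11% by order and 64.6% with the block. COI1 read 0.20 ± 0.22 in wild type and 0.084 ± 0.22 in tt8-3, and the difference was -0.12 within slide 1 and within slide 2.

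At the brightest probe of each, 0 of 8 co-repressor genes rose (0 also at an unadjusted p below 0.05 in limma) and 1 fell. Over all genes 15.7% rose and 11.0% fell. TPR1, a TOPLESS relative, fell by 0.65 on the log2 scale, from -0.92 ± 0.0013 to -1.57 ± 0.040 (limma adjusted p = 0.014, by order 0.098). It lost the call without the wild-type average of slide 1 or of slide 2, with a change of -0.65 in both fits. NINJA, the adaptor between JAZ proteins and TOPLESS, had a difference of 0.22, the histone deacetylase gene HDA19 one of -0.23, and TPR4 one of -0.32, and none of these passed (limma adjusted p = 0.28, 0.14 and 0.080). The slide block gave 1 rise among the 8, NINJA (adjusted p = 0.021), and 4 falls, HDA19 (0.027) and TPR4 (0.010) among them. Of all 14 tested probes of these genes 0 rose and 3 fell by slide averages. The dimmer probe of TPR2 was among those that fell, at -0.59 (adjusted p = 0.022 over all probes, by order 0.22). Its brighter probe stood at -0.28 (limma adjusted p = 0.32). The dimmer probe of NINJA gave 0.50 and did not pass (adjusted p = 0.066 over all probes).

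The activators that JAZ proteins hold in check were higher. Of 4 tested genes of the list of MYC activators with the Mediator subunit MED25, 3 rose and 0 fell. These shares were 15.7% and 11.0% over all genes. MYC2, the main activator of the response, rose by 1.37 from 2.29 ± 0.040 to 3.66 ± 0.011 (limma adjusted p = 0.0040, by order 0.029). MYC4 rose by 0.63 and MYC3 by 0.52 (limma adjusted p = 0.016 and 0.022), and both were lost by averages by order (0.13 and 0.18). Of the 12 fits without an array or a slide average MYC2 kept its call in 12, MYC4 in 8 and MYC3 in 4. MED25, which links MYC2 to the transcription machinery, had a difference of 0.55 (limma adjusted p = 0.058, slide block 0.012). Of the JAM factors, relatives of MYC2 that repress the same promoters, JAM1 rose by 1.12 (limma adjusted p = 0.011, by order 0.054). JAM2 had a difference of 0.48 (adjusted p = 0.12, slide block 0.0047) and JAM3 one of 0.066, which turned to -0.033 with median scaling.

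Among the other factors that JAZ proteins bind, 8 of 11 were tested, 1 was called higher and 1 lower. The one called lower was TT8 itself. GL1, a MYB factor of trichome initiation, was called higher (limma adjusted p = 0.0032), but it passed the filter on dim probes through tt8-3 alone, since 1 of the 4 arrays of wild type and all 4 of tt8-3 measured it well above background. With each wild-type array floored at its lowest signal flagged well above background, GL1 was 6.13-fold higher in tt8-3. Some probes above that floor lacked the flag, so this fold is not a strict bound either. MYB75, an activator of anthocyanin synthesis, had a difference of -0.46, and EIN3, a factor of ethylene signalling, one of 0.38, and neither passed (limma adjusted p = 0.052 and 0.17, slide block 0.0065 and 0.0063). The slide block gave 3 rises and 4 falls among the 8, where 33.8% of all genes rose and 30.8% fell.

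Most genes that make the hormone rose. Of 11 jasmonate synthesis genes 10 rose and 0 fell, where 15.7% of all genes rose and 11.0% fell. Their median change was 1.299, and the exception, named after its value was seen, was JAR1, the conjugating enzyme. JAR1 stood at -0.037 at the brightest of its 3 probes and at -0.80 and -0.97 at the others (adjusted p = 0.063 and 0.045 over all probes), where every tt8-3 array lay below every wild-type array. AOC1, an allene oxide cyclase, rose by 2.44 (limma adjusted p = 0.0019), and the lipoxygenase gene LOX3 by 2.01 (0.0026). OPCL1, a ligase that activates the precursor, rose by 1.299 (limma adjusted p = 0.0042), and LOX2, a lipoxygenase of the chloroplast, by 1.35 (0.0060). The averages by order gave 5 rises among the 11, and LOX2 was not among them (adjusted p = 0.072). The weakest calls, named after their values were seen, were AOS and AOC4 (limma adjusted p = 0.049 and 0.042, by order 0.41 and 0.27). For both the arrays of the lines overlapped, and neither passed in the fit over all probes (adjusted p = 0.058 and 0.0501).

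Of 9 tested genes of jasmonate inactivation 5 rose and 0 fell, beside 15.7% and 11.0% of all genes, with a median of 0.95. CYP94C1 and CYP94B3, cytochromes P450 that oxidise jasmonoyl-isoleucine, rose by 1.92 and 1.50 (limma adjusted p = 0.0024 and 0.0050). JOX2, which hydroxylates jasmonic acid, rose by 1.79 (limma adjusted p = 0.0024) and ST2A, a sulfotransferase, by 2.32 (0.0086). ST2A was lost by averages by order (adjusted p = 0.073), where 3 of the 9 rose, beside 2.73% of all genes. With slide as a block all 9 rose, where 33.8% of all genes did.

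**Figure D3:**
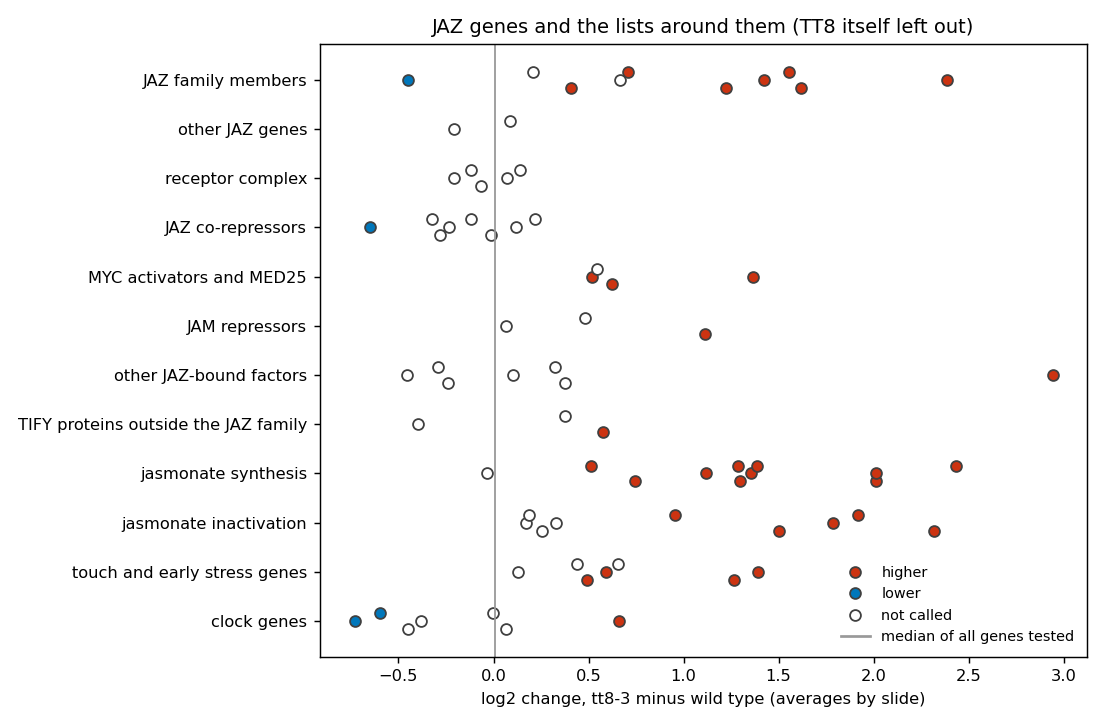
Change of each tested gene of 12 lists, tt8-3 minus wild type in log2 units, with 1 row per list and filled symbols for genes past the threshold by slide averages. TT8 is left out, GL1 is drawn at its measured 2.94 although wild type was near background, and the vertical line marks the median over all genes, 0.0103. The JAZ members, the MYC list and the genes of jasmonate synthesis and inactivation lie mostly to the right. The receptor genes lie around the line, and the co-repressor genes mostly to its left, with 2 of 8 changes positive.

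Jasmonate genes respond to handling and follow the time of day, so the corresponding lists are given beside the family. Of 7 tested touch and early stress genes 4 rose and 0 fell, beside 15.7% and 11.0% of all genes. The summed level of the list was 5.27 to 5.94 on wild-type arrays and 6.05 to 6.21 on tt8-3 arrays, without overlap. TCH2, a calmodulin-like protein gene, rose by 1.39 (limma adjusted p = 0.015), and WRKY40, a transcription factor gene of early stress, by 1.27 (0.0045). ERF5, an ethylene response factor gene, rose by 0.59 (limma adjusted p = 0.041), and TCH4, which encodes a wall enzyme, by 0.49 (0.032). The averages by order gave 1 rise among the 7, TCH2 (adjusted p = 0.024). No harvest hour is given in the sources used here. Of 7 tested clock genes 1 rose, the evening gene TOC1 by 0.66, and 2 fell, GI by 0.73 and PRR7 by 0.60 on the log2 scale (limma adjusted p = 0.015 for each). CCA1, a morning gene, had a difference of -0.45 (adjusted p = 0.051, slide block 0.0049). By averages by order 0 of the 7 passed in limma, and 3 did at an unadjusted p below 0.05. Of the 12 fits without an array or a slide average TCH2 and WRKY40 kept their calls in 12, GI in 9, TOC1 and PRR7 in 8, ERF5 in 4 and TCH4 in 2. The summed clock level was 3.80 to 3.85 in wild type and 3.61 to 3.78 in tt8-3, also without overlap. Among single genes tt8-3 lay wholly above wild type for 19.6% of all genes and wholly below for 13.5%. The part of handling and of time of day in the JAZ values was not tested.

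Shoot and root markers were also followed gene by gene. Of 5 shoot markers 0 passed in limma by slide averages or by order (1 and 0 at an unadjusted p below 0.05). With slide as a block all 5 fell, where 30.8% of all genes did. These counts hold for the brightest probe of each gene: of all 37 tested probes of these genes 0 rose and 5 fell by slide averages. At the brightest probes the differences ran from -0.42 (LHCB5) to -0.28 (CA1), and with quantile normalization those of LHCB3 and CA1 turned to 0.030 and 0.060. Of 5 root markers PYK10, a root glucosidase, rose by 0.71, the nitrate transporter gene NRT2.1 fell by 2.05 and the phosphate transporter gene PHT1.1 fell by 0.65 on the log2 scale (limma adjusted p = 0.021, 0.0032 and 0.030). By averages by order NRT2.1 passed (adjusted p = 0.027) and PYK10 and PHT1.1 did not (0.30 and 0.21). The calls by slide averages stood in 7, 12 and 6 of the 12 fits without an array or a slide average. CASP1, a marker of the endodermis, had a difference of -0.14 (adjusted p = 0.42). The root markers therefore moved in both directions, and their part in the JAZ values was not tested.

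The members lie apart in the genome, with 6 on chromosome 1, 1 on chromosome 2, 1 on chromosome 3 and 2 on chromosome 5. The 2 nearest tested genes on each side of every member, 40 genes in all in the gene order of the RefSeq table for TAIR10.1, were set beside the family. Of the 40 neighbours 2 rose and 7 fell, which is 22.5% called where 26.7% of all genes were. Their changes ran from -1.01 to 1.02 with a median of -0.11. The genes that rose, named here after their values were seen, were ORA47 beside JAZ2 and AT1G17400 beside JAZ5. ORA47, an ethylene response factor of the jasmonate pathway, rose by 0.86 (limma adjusted p = 0.0087, by order 0.19), and AT1G17400 rose by 1.02 (limma adjusted p = 0.023, by order 0.051). By averages by order 0 of the 40 neighbours passed in limma at an adjusted p below 0.05, where 3.11% of all genes did, and 6 at an unadjusted one. With slide as a block 26 passed, where 64.6% of all genes did.

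**Figure D4:**
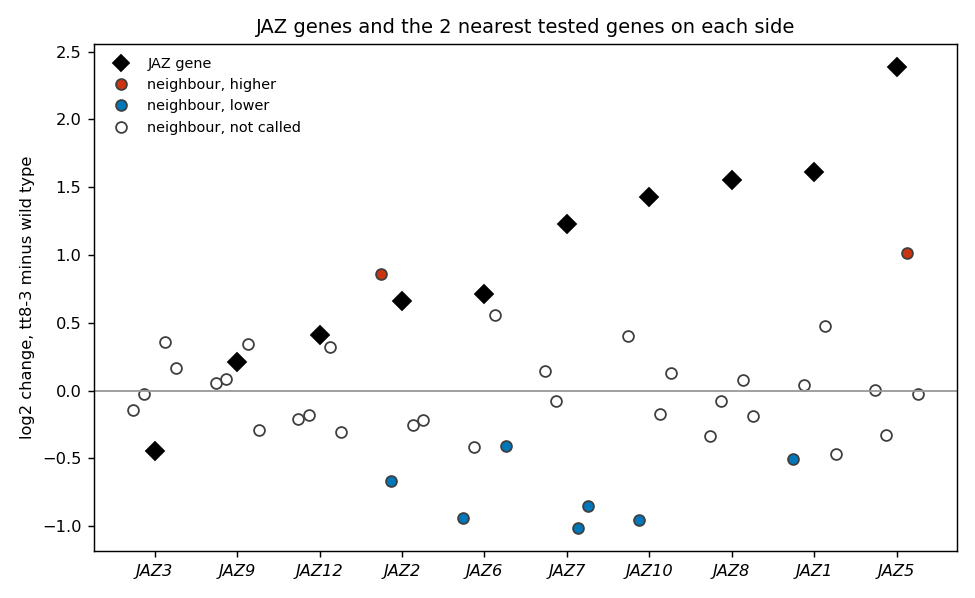
Change of each JAZ gene (diamonds) and of the 2 nearest tested genes on each side of it, tt8-3 minus wild type in log2 units, by place along the chromosome. The neighbours stay between -1.01 and 1.02, and 5 of the JAZ genes exceed 1.02.

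The mean profile of the members over the 8 arrays, each member centred on its own mean, was compared with every other tested gene. The 5 genes of highest Pearson correlation were LEA14 (0.9986), AT4G15620 (0.9969), AT4G27300 (0.9963), AT1G53887 (0.9959) and BPC2 (0.9953). LEA14 is a late embryogenesis abundant protein gene and BPC2 a GAGA-binding factor gene. LEA14 read 2.12 to 2.24 in wild type and 3.33 to 3.63 in tt8-3, a change of 1.33, and AT4G15620 rose by 3.15. The 8 points share 2 groups, so any gene with a large and even difference between the lines scores high, and the correlations are a description only.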

How the data were processed

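The scanner files hold spot intensities, per the file headers, among them a background-subtracted processed signal. The submitters' processing notes name Agilent Feature Extraction 10.7.1.1. Flags for spots not well above background, uneven or outlying come as other values of 0 or 1, per the file headers. The deposited value table holds log2 values. Set against the scanner values, it is log2 of the processed signal relative to the scaling percentile, centred per probe on each slide. The correlation was at least 0.99989 on every array. Column medians ran from -0.061 to 0.113, and the deposited table was used as an alternative.

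Flagged spots (4 to 23 an array) and controls were left out, and repeated spots averaged. Accessions named 34358 of 43603 probes by 1 gene. The brightest probe stood for a gene, and was tested if all 4 arrays of wild type, or all 4 of tt8-3, measured it well above background. limma 3.58.1 (lmFit, eBayes; R 4.3.3) used Benjamini-Hochberg adjustment. The steps were tested on simulated data.

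Arrays of the same replicate number in both lines deviated together (correlations 0.28, 0.34, 0.31 and 0.38), and all 8 correlated best with their own number. Over genes the slide difference of wild type correlated with that of tt8-3 at 0.78, and the order difference at 0.13. The numbers therefore pair the arrays mainly by slide. No 2 arrays held equal values.

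The 10 JAZ members and all lists (other JAZ genes, receptor complex, co-repressors, MYC activators, JAM repressors, other bound factors, other TIFY proteins, synthesis, inactivation, touch, clock, shoot and root) were chosen with earlier results of these data known. Named are all members, TT8, the tested genes of smallest p in each list, up to 4, and the 5 genes most correlated with the members. The neighbours were added later. No sequence of a probe or promoter was used here.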

Additional observations from a re-analysis of the deposited data

How the results depend on the processing

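Signal over background limits JAZ5, JAZ4 and JAZ13, and the number of slide averages limits every test. The direction of each JAZ member was the same under every setting run, except that of JAZ9, which was -0.012 without the tt8-3 average of slide 1. The median change of the members stayed between 0.86 (normexp) and 1.06 (without tt8-3 replicate 4). Genes past the threshold numbered 5137 by slide averages (3025 higher, 2112 lower), 597 by averages by order, 12415 with slide as a replicate block, 105 with normexp on spot medians, 2398 with no filter on dim probes (25433 genes tested), 13890 in the deposited table, which is centred on each slide, and 2097 to 5036 without an array or a slide average. Median scaling moved the median of all genes from 0.010 to -0.089 and gave 2153 higher and 2597 lower. Of the JAZ members 8 passed by slide averages, 3 by order, 5 with no filter, 0 with normexp (7 at an unadjusted p below 0.05 in limma) and 4 to 7 without an array or a slide average, where 4 is without the wild-type average of slide 1, and 5 is without that of slide 2, wild-type replicate 3 or tt8-3 replicate 1. Where the cause of a lost call is not plain from fewer samples or more genes tested, it was not tested.

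Averaging by order ended the calls of JAZ1 (1.62), JAZ3 (-0.45), JAZ6 (0.71), JAZ7 (1.23) and JAZ12 (0.41). The alternatives with normexp were chosen after seeing the data, since the mean signals that the planned one needed are not used here, and it was not run. Normexp on all spots, which moved the median of all genes to 0.118, ended the calls of JAZ1 (1.45), JAZ3 (-0.31), JAZ5 (1.51), JAZ6 (0.64), JAZ7 (1.08), JAZ8 (1.38), JAZ10 (1.25) and JAZ12 (0.21). With spots of flagged background left out, 3431 genes passed and JAZ12 (0.32) alone of these lost its call, while JAZ5 was at 1.35. No filter ended the calls of JAZ3 (-0.45), JAZ5 (2.39) and JAZ12 (0.41), and median scaling that of JAZ12 (0.31). On 8 single arrays, slide as a fixed block or line and slide as a random block ended that of JAZ3 (-0.45). JAZ2 passed with slide as a replicate block, with the replicate numbers as a block, in both fits on 8 arrays (0.66 in each) and in the deposited table (0.66), and JAZ9 passed with slide as a replicate block (0.21). The replicate blocks changed no other call of the members. Without an array or a slide average the changes were 0.39 to 0.93 for JAZ2, -0.64 to -0.26 for JAZ3, 1.79 to 2.98 for JAZ5, 0.67 to 0.75 for JAZ6, -0.012 to 0.43 for JAZ9 and 0.36 to 0.45 for JAZ12.

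Among genes outside the family the direction turned with normexp for JAZ4 (0.40), MYB75 (0.34) and CCA1 (0.10), with median scaling for JAZ11 (-0.014) and JAM3 (-0.033), and with quantile normalization for RBX1 (0.025), LHCB3 (0.030) and CA1 (0.060). Without an array or a slide average the changes crossed 0, among named genes with a value in the text, for COI1 (-0.27 to 0.036), ASK2 (-0.18 to 0.46), RBX1 (-0.14 to 0.015), JAM3 (-0.061 to 0.19), LHCB1.3 (-0.77 to 0.013), JAR1 (-0.12 to 0.043) and CASP1 (-0.34 to 0.058), none of which had passed by slide averages.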
